A study of Mus musculus with 6 samples.

Results

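The genes described here write, erase and read methyl and acetyl groups on histones, methylate DNA, move nucleosomes or hold chromosomes in loops. They were chosen by symbol from the deposited table of a bulk RNA sequencing experiment: families numbered Kmt, Kdm, Setd, Chd, Arid, Brd, Hdac, Kat, Tet and Smc, all Smarc genes, and 16 single genes such as Ep300, Ezh2, Suz12, Nsd1, Atrx and Dnmt1. The rule took 112 of the 14016 rows, or 0.799%, of which 111 were coding genes of these families. The other row, Chd3os, carries an older symbol of the coding gene Rnf227, fits the rule by its letters alone and was placed in no class. The 111 genes were placed in 16 classes by the activity or complex of their products, with 17 histone demethylases, 12 SWI/SNF subunits and 11 histone deacetylases as the most numerous.

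Muscle RNA came from 3 WT mice, labelled B6, and 3 GATA-1 mutant mice, the eosinophil-deficient ΔdblGATA strain, whose germline lacks the dblGATA site of the Gata1 promoter. Both groups underwent volumetric muscle loss (VML), a surgical removal of part of the quadriceps, without any implant, and muscle was frozen 7 days later. Uninjured muscle was not analysed here, and the labels gave neither age nor sex of the sequenced mice, although the study's methods describe the injury in young adult female C57BL/6 WT mice. RNA with a poly(A) tail was sequenced with added spike-in RNA. The only level used was the authors' mean log2 CPM (read counts scaled to a common library total) of each gene over all 6 libraries, which pools both genotypes and carries no error. Depth per library is unknown, no value per mouse was used, and thus no genotype comparison or test was made. The genotype labels were not checked, since Gata1 was not analysed here and a pooled level cannot separate the groups. An order of genes given below holds for that mean alone.

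DNA in the nucleus is wound around histones, and methyl or acetyl groups on their tails are placed by writer enzymes, removed by erasers and bound by reader proteins. Trimethylation of H3K4 marks active promoters, H3K36 methylation marks transcribed gene bodies, and H3K27 methylation by Polycomb repressive complex 2 (PRC2) marks silenced genes. In muscle, PRC2 holds muscle genes silent in precursor cells, while SWI/SNF remodellers act with MyoD to open them during differentiation.

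The tissue label was checked with markers. All 7 skeletal muscle fibre genes, among them Acta1 and Myh4, lay between 12.4 and 14.7 log2 CPM, and the 3 genes of regenerating fibres, Myh3, Myh8 and Myog, between 6.37 and 8.88 log2 CPM. Macrophage genes (4.71 to 6.15, 4 of 4 listed), fibroblast genes (5.73 to 11.7, 3 of 3), endothelial genes (6.41 to 6.53, 2 of 2) and the dividing-cell genes Top2a and Mki67 (4.08 and 4.41) were also present, whereas the satellite cell genes Pax7 and Myf5 lay at 2.77 and 2.17 and the neutrophil genes S100a8 and S100a9 stood at 0.52 and −0.50 log2 CPM. Of 4 eosinophil markers, 0 had a row. Chromatin genes are used by all of these cells, so each level below is a mixture over cell types, and fewer cells of a type cannot be told apart from less RNA per cell.

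The chromatin genes took up a narrow band of moderate levels. Their median was 5.13 log2 CPM, or 35.1 CPM, against 4.03 log2 CPM, or 16.3 CPM, over all genes of the table, and 84 of 111 (75.7%) lay above the median of all genes. The middle of their distribution spanned 4.07 to 5.80 log2 CPM between quartiles, a width of 1.73, compared with 3.13 for all genes. In terms of single genes, 66 members (59.5%) lay within 1 log2 unit of their own median, against 35.4% of all genes around theirs. Only 3 of the 111 members ranked among the 1000 highest of the 14015 rows with a symbol. They were Chd4 (7.77 log2 CPM, rank 497), Setd7 (7.34, rank 739) and Smarcd3 (7.14, rank 870). All members together made up 0.503% of the summed CPM of the table, while the 7 fibre genes made up 9.15%.

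The members also had long transcripts, and a longer transcript yields more fragments per molecule. The median of the longest coding transcript was 5683 bases for the members and 3139 for all genes, and 64 members (57.7%) exceeded 5000 bases, against 21.4% of all genes. After dividing by length in kilobases (kb), the median level was 2.41 log2 CPM per kb for the members and 2.28 for all genes, with 60 of 111 members (54.1%) above the latter. This order turned with coding length, where the members' median lay 0.39 log2 units under that of all genes (a difference of −0.39), and with genes under 1 log2 CPM left out (−0.29). Per kb, 17 members were above the upper quartile of all genes (3.78) and 9 were below the lower quartile (0.53). As a description over 111 genes of the same libraries, the rank correlation (Spearman's rho) of level with length was 0.24, and that of level per kb with length −0.34. Over all genes of the table the same values were 0.06 and −0.29. Kmt2d illustrates the shift, with 6.26 log2 CPM from a transcript of 19823 bases but 1.95 log2 CPM per kb. Levels of different genes are therefore compared below per kb of the longest coding transcript, except where log2 CPM is named as the scale. Other lengths are given for many, but not all, of the orders that they change. An order given without them holds for the longest transcript alone.

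**Figure D1:**
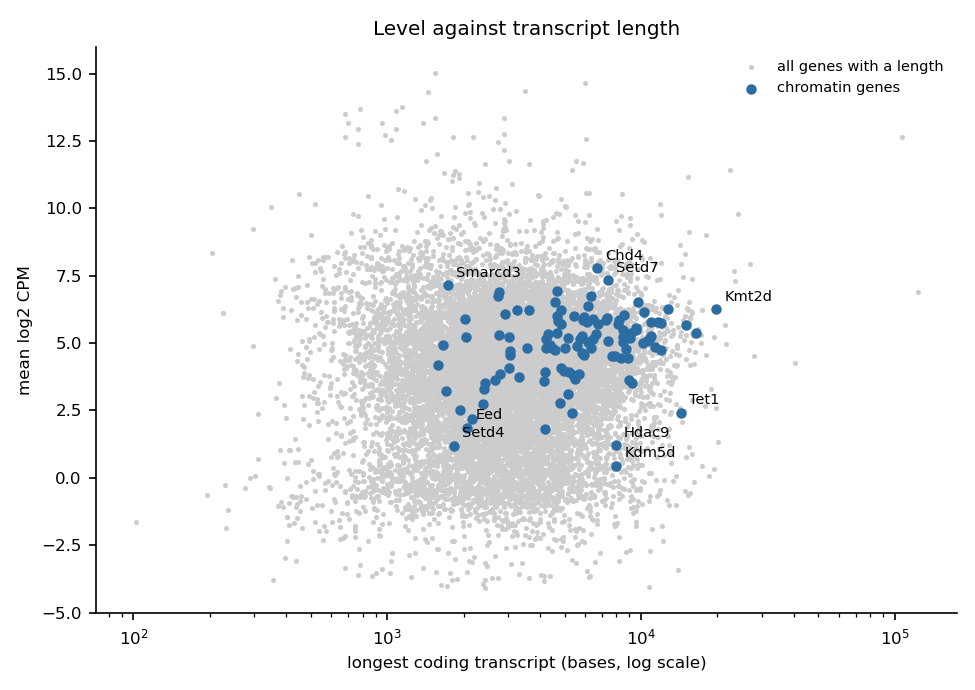
The authors' mean log2 CPM over 6 libraries is plotted against the longest coding transcript of each gene in bases on a log axis, with the 111 chromatin genes in blue and all other genes in grey. Most blue points lie right of the grey centre, between 4 and 7 log2 CPM, with Hdac9 (1.20) and Kdm5d (0.45) far below them.

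Among classes, SWI/SNF subunits (median 3.56 log2 CPM per kb, 12 genes) and bromodomain genes (3.41, 7 genes) stood highest of those with more than 1 gene. Cohesin (2.93, 6 genes), histone deacetylases (2.68, 11 genes) and PRC2 (2.60, 4 genes) also lay above the median of all genes (2.28). PRC2 fell under that median with either other length or with genes under 1 log2 CPM left out (differences of −0.10, −0.18 and −0.11), and the deacetylases with the last of these (−0.0285). Histone demethylases (2.16, 17 genes), acetyltransferases (2.22, 9 genes), H3K4 methyltransferases (2.13, 9 genes), CHD remodellers (2.00, 9 genes) and DNA methylation genes (1.81, 5 genes) lay below it. So did H3K36 methyltransferases (2.00, 2 genes), condensin and SMC5/6 (1.89, 4 genes) and, lowest of all classes, other ARID genes (1.22, 5 genes). Other ARID genes also lay under the median of all genes before division by length (a difference of −0.35). Classes overlapped widely, and deacetylases alone ran from −1.79 to 4.86 log2 CPM per kb. CHD remodellers, acetyltransferases and the H3K4 and H3K36 methyltransferases lay above the median of all genes when the median length of coding transcripts was used, with differences of 0.63, 0.29, 0.0726 and 1.73, and ISWI and other remodellers and other SET-domain genes lay below it with coding length.

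**Figure D2:**
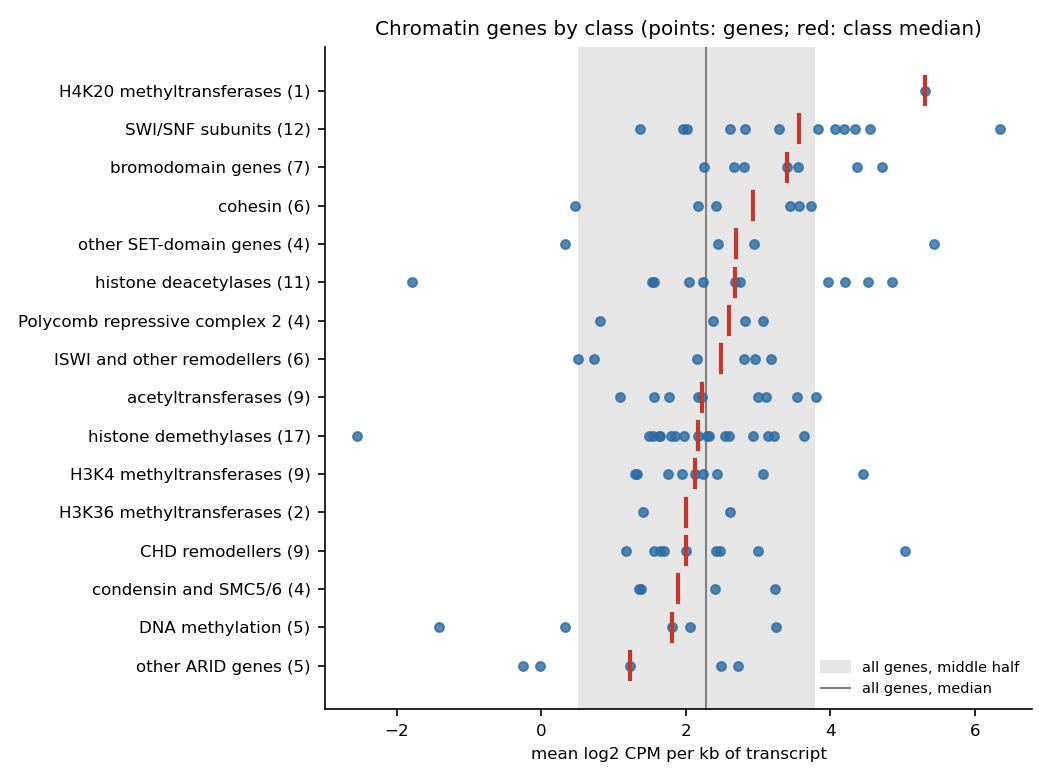
Each blue point is 1 chromatin gene placed by its mean log2 CPM per kb of longest coding transcript, in 16 classes with the number of genes in brackets, red bars as class medians, a grey line for the median of all genes (2.28) and a grey band between their quartiles (0.53 to 3.78). SWI/SNF subunits reach furthest right with Smarcd3 (6.35), and Kdm5d (−2.55) and Hdac9 (−1.79) lie furthest left.

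The H3K4 methyltransferases were led by Setd7, a monomethyltransferase of H3K4 and of other proteins, at 4.45 log2 CPM per kb, higher than 83.2% of all genes. The 6 catalytic subunits of the COMPASS complexes ran from 1.30 to 2.44 log2 CPM per kb. With the median length of coding transcripts Setd1a (5.26) passed Setd7 (4.45), and the 6 ran from 1.55 to 5.26. Setd1a and Setd1b, which lay down most H3K4 trimethylation, stood at 2.44 and 1.30, but 54.5% of the 31-base words of Setd1a also occur in other annotated genes, mostly in Gm49388, so that its level is uncertain. Kmt2a and Kmt2b, which act at developmental promoters, reached 1.33 and 2.13 log2 CPM per kb. Kmt2c and Kmt2d, which monomethylate H3K4 at enhancers, stood at 1.75 and 1.95. Kmt2e, a relative that binds the mark and shares 13.0% of its words with other genes, chiefly Srpk2, was at 3.07, and Ash1l, placed in this class although its product is known mainly for H3K36 methylation, at 2.24 log2 CPM per kb. All 9 of these genes lay above the median of all genes before division by length, and 3 after division by the longest coding transcript. Whether their length accounts for this was not tested.

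The other methyltransferases were few. For H3K36, Nsd1, which places dimethylation, stood at 2.61 log2 CPM per kb, and Setd2, the enzyme for trimethylation, at 1.40. The single H4K20 enzyme, listed under the older symbol Setd8 for Kmt5a, was among the highest members with 5.31 log2 CPM per kb and 6.76 log2 CPM. It places the monomethyl mark that peaks in mitosis. Kmt5b and Kmt5c, which extend that mark, have rows under the older symbols Suv420h1 and Suv420h2 that the rule does not take, at 2.39 and 2.65 log2 CPM per kb. In the remaining SET-domain group, Setd3, which methylates a histidine of actin, was at 5.44 log2 CPM per kb, though 49.4% of its words are shared, mostly with Gm14026. Setd5 stood at 2.95, Setd6, which methylates the NF-κB subunit RelA, at 2.44, and Setd4 at 0.33 log2 CPM per kb.

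PRC2 is built from a catalytic subunit, Ezh1 or Ezh2, with Suz12 and Eed. Ezh2, the form of dividing cells, stood at 2.37 log2 CPM per kb, and Ezh1, the form that prevails in resting and differentiated cells, at 3.06, 1.61-fold higher. That order held with each of the 3 definitions of length tried. Suz12, the scaffold, was at 2.82 log2 CPM per kb. Eed, which binds the trimethyl mark, was the lowest core subunit at 0.81, from 1.86 log2 CPM, with 11.3% of its words shared with E230029C05Rik. The 7 accessory subunits fixed as a separate list had a median of 2.50 log2 CPM per kb and ran from −0.37 for Phf19 to 5.55 for Rbbp7, a histone-binding protein of several complexes.

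Histone demethylases spanned 17 genes, 8 of them above the median of all genes per kb. With the longest transcript the highest was Kdm1a, the flavin-dependent eraser of H3K4 mono- and dimethylation, at 3.64 log2 CPM per kb, whereas Kdm2a stood above it with the median length (5.21 against 4.20) and with coding length (4.23 against 3.85). The lowest was Kdm5d at −2.55. In the H3K4 trimethyl-eraser family Kdm5, Kdm5c stood at 3.22 and Kdm5a at 2.32 log2 CPM per kb. The erasers of H3K27 methylation, Kdm6b and Kdm6a, were at 2.59 and 1.97, in an order that turned with the median length, and those of H3K9 dimethylation, Kdm3b and Kdm3a, at 2.16 and 1.79. Kdm2a, an H3K36 demethylase that binds CpG-rich DNA, exceeded Kdm2b 2.62-fold per kb (2.93 against 1.54 log2 CPM per kb), a difference of 1.39 log2 units that was 3.23 with the median length and 2.29 with coding length, and 24.8% of the words of Kdm2b are shared, most with Rnf34. The remaining members lay between 1.49 log2 CPM per kb, for Kdm8, and 3.14, for Kdm4a.

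Kdm5d is the only member on the Y chromosome, and Kdm5c its counterpart on the X. Kdm5c stood at 5.91 log2 CPM and Kdm5d at 0.45 log2 CPM, the lowest level of the 111 genes, at rank 12419. Their coding sequences are identical at 78.1% of 4565 aligned bases, which leaves few words in common: 0.0779% of the words of Kdm5c occur in Kdm5d. A stretch of the coding sequences shows how often the copies differ, which is what lets short reads be assigned to one or the other. The stretch covers bases 2266 to 2385 of the Kdm5c coding sequence and 2263 to 2382 of that of Kdm5d (GENCODE M21, GRCm38), counted from the start codon, with the 24 differing bases in capitals.
Kdm5c: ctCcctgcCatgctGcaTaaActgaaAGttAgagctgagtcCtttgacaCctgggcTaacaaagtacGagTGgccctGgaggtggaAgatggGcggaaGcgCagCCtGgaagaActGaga
Kdm5d: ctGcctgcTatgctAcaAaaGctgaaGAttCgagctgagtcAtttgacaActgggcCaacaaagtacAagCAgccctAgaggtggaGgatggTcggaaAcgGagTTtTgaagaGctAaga
In this stretch 0 words of 31 bases are shared between the copies. Elsewhere, 10.9% of the words of Kdm5d occur in other genes, of which Ccdc82 holds the most (3.98%), and whether reads of these genes add to its level was not tested. Besides Kdm5d, 2 rows lie on the Y chromosome, and Ddx3y, Eif2s3y, Uty and Xist, looked up after the value of Kdm5d had been seen, were not analysed here because they have no row. The 8 members on the X chromosome, which include Atrx, Stag2, Smc1a and Kdm6a, had a median of 5.17 log2 CPM, next to 5.14 for the 102 on autosomes, and of 2.39 against 2.42 log2 CPM per kb.

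Lysine acetyltransferases were led by Kat2b (PCAF), a coactivator of MyoD, at 3.80 log2 CPM per kb, with 15.4% of its words in a pseudogene. Its paralog Kat2a (GCN5), the catalytic subunit of SAGA, was at 3.11. The coactivators Ep300 and Crebbp, which acetylate H3K27 at enhancers, stood at 2.22 and 1.76 log2 CPM per kb, but differed by 2.30 log2 units with the median length. Kat6a and Kat6b, the MOZ and MORF enzymes of H3K23, stood at 2.17 and 1.56. Kat5 (TIP60), the acetyltransferase of the NuA4 complex, was lowest at 1.09 (with the median length Kat6b, at 1.73, lay under Kat5, at 2.05), and 18.6% of its words are shared with Rnaseh2c. The acetyltransferase Kat14 has a row under its older symbol Csrp2bp at 2.67 log2 CPM per kb and is not counted as a member.

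Among histone deacetylases, the class I enzymes Hdac3, Hdac2 and Hdac1 stood highest with the longest transcript. Hdac3, the subunit of the NCoR and SMRT corepressors, reached 4.86 log2 CPM per kb, Hdac2 4.53 and Hdac1 4.20. Hdac1 is uncertain, since 62.7% of its words also occur in other genes, mostly in Gm10093. Class I also holds Hdac8, on the X chromosome, which was far below at 1.57 log2 CPM per kb. The class IIa enzymes, which keep the muscle transcription factor MEF2 silent and leave the nucleus when phosphorylated, were spread widely: Hdac5 stood at 3.96, Hdac7 at 2.76, Hdac4 at 2.68 and Hdac9 at −1.79 log2 CPM per kb. With the median length Hdac4 (4.41) and Hdac5 (4.33) passed Hdac1 (4.20). Hdac9, at 1.20 log2 CPM from a transcript of 7940 bases, was the lowest autosomal gene of the 16 classes per kb, higher than 6.65% of all genes. The tubulin deacetylase Hdac6 was at 1.53 log2 CPM per kb, and Hdac10 and Hdac11, at 2.04 and 2.24, lay just under the median of all genes. Of 12 corepressor genes fixed as a list of partners, 11 had a row, 10 of them above the median of all genes per kb, with Mbd3 of the NuRD complex at 6.20 and Rcor1 at 2.02. The NAD-dependent sirtuins, 7 of 7 listed, had a median of 2.78 log2 CPM per kb.

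Bromodomain proteins read acetylated histones. Brd2 and Brd3, members of the BET family that recruit the transcription machinery, stood at 4.71 and 3.55 log2 CPM per kb. Brd7, a subunit of the PBAF form of SWI/SNF, reached 4.38 log2 CPM per kb, whereas Brd9, which defines the non-canonical BAF form, was the lowest of the class at 2.25. Of the 7 genes, 6 lay above the median of all genes per kb.

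SWI/SNF complexes contain 1 ATPase, a core and variable subunits. The ATPases Smarca4 (BRG1) and Smarca2 (BRM) stood at 4.07 and 3.29 log2 CPM per kb, while their core partners Smarcb1 and Smarce1 were at 4.19 and 4.55, with 37.5% of the words of Smarce1 shared, mostly with Gm8494. Of the scaffold paralogs, Smarcc2 (4.35) exceeded Smarcc1 (2.62) by 3.32-fold per kb, or 1.73 log2 units, against 0.75 with the median length and 1.26 with coding length. The 3 alternative BAF60 subunits differed most. Smarcd3 (BAF60c), the form known from heart and skeletal muscle, stood at 6.35 log2 CPM per kb. Smarcd2 was at 3.83 and Smarcd1 at 2.01, but at 3.94 and 4.23 with the median length, in the reverse order. Smarcd3 was thus 20.2-fold above Smarcd1 per kb, or 4.34 log2 units, which became 2.13 with the median length and 3.50 with coding length. With the longest transcript it was the highest of the 111 genes, above 95.4% of all genes, with 29.9% of its words shared with Chpf2. With the median length Dnmt3a (6.82), Kat2b (6.59) and Ep300 (6.48) passed Smarcd3 (6.36), and with coding length Setd7 (7.21) and Setd8 (6.63) passed it (6.61). Among the DNA-binding subunits, Arid1a stood at 2.82, Arid2, of PBAF, at 1.97 and Arid1b at 1.37 log2 CPM per kb. The 12 accessory subunits with a row, of 13 on the list, had a median of 2.88, from −4.94 for Bicra, listed as Gltscr1, to 5.25 for Phf10.

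The remaining remodellers were headed by Chd4, the ATPase of NuRD, at 5.03 log2 CPM per kb. Its alternative Chd3 was at 3.00, so Chd4 lay 4.07-fold higher, or 2.03 log2 units, against 0.84 with the median length and 2.01 with coding length, and 0.12% of the words of Chd4 occur in Chd3. With the median length Chd2 (5.60) and Atrx (5.45) passed Chd4 (5.07). The other CHD genes ran from 1.17 for Chd9 to 2.48 for Chd1l, with Chd8 at 2.41, Chd2 at 2.00, Chd7 at 1.64 and Chd1, which follows elongating polymerase, at 1.55 log2 CPM per kb. Of the ISWI ATPases, Smarca5 (SNF2H) was at 3.18 and Smarca1 (SNF2L) at 0.50, a 6.40-fold difference (2.68 log2 units, 2.07 with the median length and 3.04 with coding length), with 40.9% of the words of Smarca5 found in other genes, mostly Gm13135. Bptf, the large subunit of NURF that pairs with SNF2L, stood at 2.16 log2 CPM per kb. Atrx, which deposits histone H3.3 at repeats, was at 2.80, the annealing helicase Smarcal1 at 2.96 and Smarcad1 at 0.73.

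Cohesin holds sister chromatids together and extrudes DNA loops. Its ring subunits Smc1a and Smc3, which form a 1-to-1 pair in the protein complex, lay near each other at 3.57 and 3.44 log2 CPM per kb. The third ring subunit, Rad21, is a partner gene here and was at 4.66. Stag2 and Stag1 stood at 3.73 and 2.42, in an order that turned with the median length. Pds5b (2.17) exceeded Pds5a (0.47), which regulate release of the ring, by 3.26-fold, or 1.71 log2 units, against 0.69 with the median length and 1.32 with coding length. Condensin compacts mitotic chromosomes, and its ATPases Smc4 and Smc2 stood at 3.24 and 1.38 log2 CPM per kb. The 6 non-SMC subunits of condensin had a median of 0.25, with Ncaph2 of condensin II at 4.58 and Ncapg2 at −1.20. Smc6 and Smc5, which pair in DNA repair, were at 2.40 and 1.35 log2 CPM per kb.

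**Figure D3:**
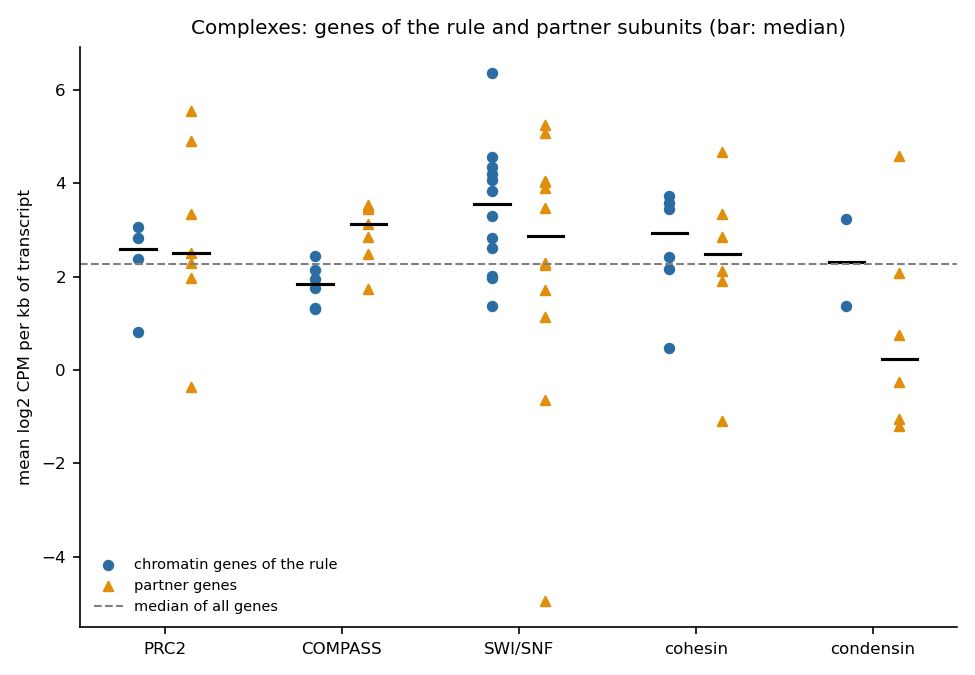
Mean log2 CPM per kb is shown for genes chosen by the rule (blue circles) and for other subunits fixed as partner lists (orange triangles) in 5 complexes, with black bars for medians and a dashed line for the median of all genes (2.28). The COMPASS enzymes (median 1.85) lie under their core partners (3.12), and condensin shows the lowest partner median (0.25).

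With the longest transcript, the genes of the rule lay under their partners by median in COMPASS and above them in SWI/SNF. No other length was tried on the partner lists. The 6 catalytic subunits had a median of 1.85 log2 CPM per kb, and the 7 core partners with a row, of 8 on the list, among them Wdr5 (3.52) and Ash2l (3.49), which serve all 6 enzymes, a median of 3.12. In SWI/SNF the 12 members had a median of 3.56 and the 12 accessory genes 2.88. Over all lists, 84 of 87 partner genes had a row, with a median of 2.68 log2 CPM per kb and 50 above the median of all genes. Dpy30, Gatad2b and Actl6b were not analysed here. Among partners in other pathways, the protein arginine methyltransferases (8 of 8 listed, median 3.24 log2 CPM per kb, Prmt1 highest at 4.35) and the INO80 and SRCAP remodellers (5 of 5, median 2.94) lay above the median of all genes. The H3K9 and other methyltransferases had a median of 1.88 over 9 genes, from −0.52 for Suv39h2, a writer of heterochromatin, to 4.35 for Ehmt2 (G9a), a writer of H3K9 dimethylation. The lowest such list after condensin was that of replication-linked methylation, with a median of 0.53 over 6 genes, among them Uhrf1, the guide of Dnmt1 to newly copied DNA, at 0.83 and the helicase Hells at −0.48 log2 CPM per kb.

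Of the 5 DNA methylation genes, 1 lay above the median of all genes per kb. This was Dnmt3a, the de novo methyltransferase of differentiated tissue, which at 3.25 log2 CPM per kb exceeded Dnmt1, the maintenance enzyme that acts with replication, at 2.06. Its paralog Dnmt3b, a partner gene, was at −1.12. Of the TET enzymes, which oxidise 5-methylcytosine, Tet3 stood at 1.81, Tet2 at 0.33 and Tet1, the form of embryonic stem cells, at −1.42 log2 CPM per kb, although Tet1 was at 3.24 with the median length. The ARID genes outside SWI/SNF comprised Arid4b (2.72) and Arid4a (2.49), which belong to the Sin3 corepressor complex, Arid5a (1.22), an RNA-binding regulator of inflammatory transcripts, Arid3a (−0.02) and Arid3b (−0.25). By the median length Arid4a (3.89) lay above Arid4b (2.74), and Arid3b (1.12) above Arid3a (0.10).

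Related genes were compared in 23 fixed pairs, among them Dnmt3a with Dnmt1, the de novo and the maintenance DNA methyltransferase. The median difference was 1.14 log2 units per kb, 12 pairs differed by more than 1 unit and 3 by more than 2 units, namely Smarcd3 over Smarcd1, Smarca5 over Smarca1 and Chd4 over Chd3. With the longest transcript the smallest differences were those of Kmt2d over Kmt2c (0.20), Hdac2 over Hdac1 (0.33), Kdm3b over Kdm3a (0.37) and Ep300 over Crebbp (0.46). Paralogs shared at most 0.12% of their words, so few reads would fit both genes of a pair. The order was the same with all 3 definitions of length in 18 pairs. It turned with the median length of coding transcripts in 5 pairs, Stag2 with Stag1, Hdac5 with Hdac4, Smarca4 with Smarca2, Kdm6b with Kdm6a and Kmt2d with Kmt2c, which therefore have no settled order here. In 5 pairs the difference exceeded 1 log2 unit with every definition.

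**Figure D4:**
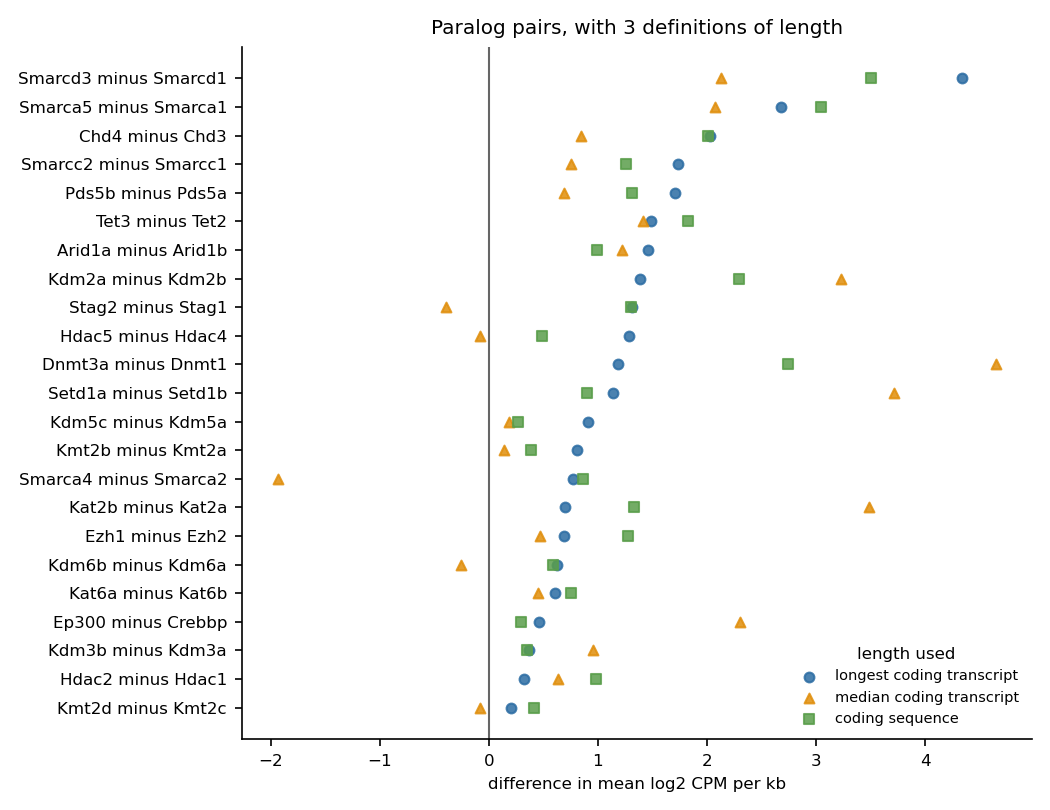
The difference in mean log2 CPM per kb between the members of each of 23 paralog pairs is shown with length taken as the longest coding transcript (blue circles), the median coding transcript (orange triangles) or the coding sequence (green squares). Points left of 0 mark a turned order, which occurs in 5 pairs, all with the median length.

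The promoters of these genes were compared as a feature that the rule did not use. RefSeq windows (GRCm38.p6, 250 bases before to 50 after the annotated start) were found for 85 members, 114 windows in all. Their median GC content was 64.5%, against 60.3% in 13744 windows of genes of the table and 52.7% in all 32851 windows. The ratio of observed to expected CpG had a median of 0.85, against 0.73 and 0.38, and exceeded 0.5 in 83.3% of member windows, 72.2% of windows of the table's genes and 41.9% of all windows. The TATA box (searched as TATAAA on both strands) was found in 4 member windows (3.51%), against 7.65% and 13.6%. CCAAT was found in 38.6%, 37.1% and 37.4%, the ETS motif (CCGGAAG) in 13.2%, 15.9% and 8.86%, the NRF1 motif (GCGCATGC) in 6.14%, 4.78% and 2.71%, and the YY1 motif (ATGGCGGC) in 5.26%, 4.30% and 2.24%. The cAMP response element (TGACGTCA) was found in 0 of 114 member windows, 2.80% of those of the table's genes and 1.79% of all. These are shares of windows that hold the letters, not of sites bound.

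The windows of 4 members are shown: the highest member and the lowest autosomal one, per kb of longest transcript, and the PRC2 pair. Each covers the 250 bases before the start, 5′ to 3′ on the gene's strand, with matches to the 6 motifs in capitals (ATTGG is CCAAT on the other strand). Smarcd3, the highest of the 111 genes per kb of longest transcript, lies at chr5:24602003-24602252 on the minus strand, with 76% GC and a CpG ratio of 1.06.
Smarcd3: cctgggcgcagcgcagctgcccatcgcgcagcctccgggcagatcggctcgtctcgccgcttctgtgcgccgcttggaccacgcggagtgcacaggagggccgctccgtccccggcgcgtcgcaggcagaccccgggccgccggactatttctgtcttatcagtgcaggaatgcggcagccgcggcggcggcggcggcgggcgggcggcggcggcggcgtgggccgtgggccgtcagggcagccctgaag
Hdac9, the lowest autosomal gene of the 16 classes per kb, has 2 windows, and the one shown, at chr12:34917096-34917345 on the minus strand, holds a TATA box, 44.4% GC and a CpG ratio of 0.
Hdac9: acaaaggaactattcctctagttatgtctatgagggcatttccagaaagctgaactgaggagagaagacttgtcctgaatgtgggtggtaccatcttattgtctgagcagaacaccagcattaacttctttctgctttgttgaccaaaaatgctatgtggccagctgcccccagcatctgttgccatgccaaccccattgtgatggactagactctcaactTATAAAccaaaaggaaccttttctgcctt
Ezh2 (chr6:47595031-47595280, minus strand) holds CCAAT 3 times with 63.6% GC, and Ezh1 (chr11:101226464-101226713, minus strand) holds none of the 6 motifs with 55.2% GC.
Ezh2: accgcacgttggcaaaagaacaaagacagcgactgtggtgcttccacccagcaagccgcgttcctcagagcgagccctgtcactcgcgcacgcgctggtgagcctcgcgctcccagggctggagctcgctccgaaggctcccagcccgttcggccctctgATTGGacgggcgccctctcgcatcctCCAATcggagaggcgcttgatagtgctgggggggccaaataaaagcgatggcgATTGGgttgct
Ezh1: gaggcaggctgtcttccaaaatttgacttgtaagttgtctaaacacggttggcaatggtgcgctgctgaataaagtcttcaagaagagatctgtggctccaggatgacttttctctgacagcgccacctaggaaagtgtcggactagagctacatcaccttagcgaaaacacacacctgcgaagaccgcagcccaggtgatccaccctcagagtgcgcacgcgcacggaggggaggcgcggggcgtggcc
The CpG-poor window of Hdac9 stands apart from the other 3 shown, whose CpG ratios were 0.74 for Ezh1, 0.91 for Ezh2 and 1.06 for Smarcd3. The second Hdac9 window has a CpG ratio of 0.17 and no TATA box. Kdm5d, the lowest of the 111 genes, is not shown, and its 300-base window holds a TATA box with a CpG ratio of 1.51. TATA boxes also lie in windows of Smarcd2 (3.83 log2 CPM per kb) and Hdac8 (1.57). Whether level goes with CpG ratio or motif was not tested.

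At the bottom of the table stood few chromatin genes. Of the 111 genes, 5 were under 2 log2 CPM, Eed (1.86), Arid3b (1.81), Hdac9 (1.20), Setd4 (1.20) and Kdm5d (0.45), whereas 21.8% of all rows lay at or below the level of Eed. The row Chd3os (Rnf227) stood at −0.74 log2 CPM. Per kb of longest transcript, 5 of the 111 were below 0, Kdm5d, Hdac9, Tet1, Arid3b and Arid3a. On that scale 19.3% of all genes with a length lay at or below Arid3a, the highest of these 5. Of the 120 coding genes that fit the rule in the annotation, Arid3c, Arid5b, Brd3os, Chd5, Kdm4d and Smc1b, the meiotic cohesin subunit, were not analysed here. The methods state a minimum of 1 CPM in at least 3 samples, yet 1198 rows of the deposited table have a mean below 0 log2 CPM, down to −4.08 for Sirt5, so the filter that these genes passed is not known here.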

How the data were processed

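The authors sequenced poly(A) RNA as paired-end reads, pseudoaligned it with kallisto, computed CPM with edgeR, state a filter of over 1 CPM in 3 or more samples (rows with a mean far below 0 log2 CPM are nevertheless present), and applied a log transform and TMM scaling before limma. The submitters' processing notes name the builds GRCm39 and mm39, and the transcript index is not given in the sources used here. The deposited table holds 14016 rows, 1 without a symbol, with log2 values (the authors' mean log2 CPM over all 6 samples) and the authors' own genotype comparison (log2 fold change, moderated statistics, p-values), which was not used. For 1 member, values of its own and its paralog pair are not reported here. The number of columns per sample left unused was 0. The planned limma fit of GATA-1 mutant against WT needed values per sample and could not be made. Depth per sample is unknown, so no interval is given.

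Transcript lengths came from GENCODE M21 (GRCm38), where 13458 symbols were found as written and 487 as older names, so that 99.5% of rows had a length. Since the builds differ, gene coordinates were not used, and promoter coordinates are those of RefSeq. Level per kb is the mean log2 CPM minus the log2 of the longest coding transcript in kb, without a pseudocount. Shared sequence is how many of the 31-base words in the longest transcript, in percent, also lie in another gene's transcripts on either strand. Kdm5c and Kdm5d were aligned with biopython 1.88. Calculations used python 3.11.15, numpy 2.4.6 and pandas 2.3.3 and were tested on simulated data. The genes named are the highest and lowest of each class, every gene of classes of 6 or fewer, the paralog pairs, the members nearest the bottom and the genes of the rule without a row. Others, such as Brd3, Brd7, Hdac6 to Hdac11, Kdm8, Kdm4a, Kmt2e, Ash1l, several CHD genes, Smarcb1, Smarce1, Smarcd2, Arid2 and the Y-linked lookups, were added after their values were seen. Members, classes and lists were chosen with earlier results of these data known. Alternatives were other lengths, minimum levels, means for medians, older symbols and leaving out genes with over 50% of words shared.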

Additional observations from a re-analysis of the deposited data

How the results depend on the processing

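No paired analysis was possible because the table holds no value per mouse. For the same reason the pseudocount, filter and leave-one-out refits of the genotype comparison were not run. Differences here are class medians minus the median of all genes, in log2 units, and a move of over 0.5 or a change of sign is named. With coding length, the difference per kb of all members turned to −0.39, ISWI and other remodellers to −0.58, PRC2 to −0.18 and other SET-domain genes to −0.28. It moved to −0.87 for CHD remodellers, −1.08 for DNA methylation, −1.02 for H3K36 and −1.22 for H3K4 methyltransferases, −0.64 for acetyltransferases, −0.78 for histone demethylases, 0.61 for SWI/SNF, 0.49 for bromodomain genes and 0.0753 for cohesin. With the median length of coding transcripts, it turned to 0.63 for CHD remodellers, 1.73 for H3K36 and 0.0726 for H3K4 methyltransferases, −0.10 for PRC2 and 0.29 for acetyltransferases. With genes under 1 mean log2 CPM left out, it turned per kb to −0.29 for all members, −0.23 for ISWI and other remodellers, −0.11 for PRC2, −0.0285 for histone deacetylases and −0.0152 for other SET-domain genes, and before division by length to −0.0160 for PRC2 and −0.0430 for condensin and SMC5/6. SWI/SNF, bromodomain and cohesin genes and the single H4K20 enzyme stayed above the median of all genes in every alternative run. Other ARID genes stayed below it in every one. The paralog order turned, with the median length, to −0.39 for Stag2 minus Stag1, −0.0793 for Hdac5 minus Hdac4, −1.94 for Smarca4 minus Smarca2, −0.26 for Kdm6b minus Kdm6a and −0.0777 for Kmt2d minus Kmt2c, while 13 other pairs moved without turning, as did 8 with coding length. Using means and leaving out genes with most words shared moved no class median by that much, and neither was run on the pairs. The number of members was 112, 115 with older symbols and 100 with a minimum of 3 log2 CPM. Without depth or values per mouse, no error could be set on any level.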
